A study of Mus musculus with 5 samples.

Results

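Lymphatic endothelial cells of the fetal mouse lung were picked out of single-cell RNA counts by their transcripts. A cell had to hold at least 500 detected genes, at most 15% mitochondrial UMIs (unique molecular identifiers, 1 per counted RNA molecule), a UMI of Cdh5 or Pecam1, and no UMI of Ptprc, Epcam or Pdgfra, which mark immune, epithelial and mesenchymal cells. It also had to hold a UMI of at least 2 of 4 lymphatic genes, Prox1, Mmrn1, Ccl21a and Reln. This rule took 127 cells, which were 0.252% of the 50355 deposited barcodes and 6.02% of the 2108 cells that passed the same gate without the lymphatic genes (endothelial-gate cells). The lungs came from 5 embryos at stage E18.5, dissociated whole with collagenase and DNase, with 1 droplet library of 3′ RNA ends per embryo. Per the labels, 2 embryos were Zswim8+/- (Het1 and Het2) and 3 were Zswim8-/- (KO1, KO2 and KO3). The labels name no allele, no strain and no wild-type group, so every comparison is of homozygous against heterozygous embryos.

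Lymphatic endothelium lines the vessels that return tissue fluid, proteins and immune cells to the blood. Its identity is set by the transcription factor PROX1, and its growth by VEGF-C acting through the receptor VEGFR3, the product of Flt4. In the lung these vessels clear fluid before and after the first breath, and they express CCL21, which draws dendritic cells and lymphocytes towards lymph. Zswim8 encodes the substrate adaptor of a ubiquitin ligase that removes Argonaute proteins bound to certain microRNAs and so destroys those microRNAs.

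The files held 8722 to 13539 barcodes and 56608582 to 93708304 UMIs per library, and 3129 to 4820 barcodes per library passed the quality filter. Of the 19457 distinct barcode sequences that passed, 34 occurred in more than 1 library, and none of these was a rule-selected cell. Xist and Y-linked UMIs marked KO1 and KO2 as female and both Het libraries and KO3 as male, so sex and genotype were partly confounded. Per the labels each library is a separate embryo. Zswim8 UMIs were found in all 5 libraries. A 3′ count does not show whether a transcript encodes a working protein, so this level does not check the genotype labels.

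The label was checked against 16 other lymphatic markers that the rule did not use. The 127 cells fell into 2 kinds. In 73 cells all 4 lymphatic genes were found and in 9 cells 3 were found, and these 82 cells are called core cells here. The other 45 cells held exactly 2 of the genes. This split was made after the data were seen, so the sums below are no independent test of it. In core cells the 16 markers summed to 9682 CPM (UMIs scaled to a common library total) in Het1, 6596 in Het2, 7374 in KO1, 6732 in KO2 and 6749 in KO3. In the cells with exactly 2 genes the same sum was 965, 1140, 1038, 982 and 803 CPM. Blood endothelial cells, defined by UMIs of both Cdh5 and Pecam1 and none of the 4 lymphatic genes, gave 853, 852, 818, 745 and 748 CPM. The cells with exactly 2 lymphatic genes therefore stood near blood endothelium in these markers, and the core cells stood above both in every library.

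Flt4, the VEGF-C receptor gene, was found in 82 of 82 core cells and in 29 of 45 cells with exactly 2 genes. Podoplanin (Pdpn), a membrane glycoprotein of lymphatic endothelium, was found in 62 of 82 and in 4 of 45. A core cell held a median of 12.5 of the 16 markers (range 6 to 16), and a cell with exactly 2 genes held a median of 5 (range 0 to 10). Depth did not favour the core cells, whose median total was 16422.5 UMIs against 24421 in cells with exactly 2 genes. Of these 45 cells, 32 entered the rule through Prox1 and Mmrn1, and 22 held at most 1 UMI of each of the genes found. The label therefore holds for the core cells, and the data go against it for the cells with exactly 2 genes as a group, called 2-gene cells here. Single 2-gene cells departed from the group. A Het1 cell of 1215 total UMIs held 21 Ccl21a UMIs, and a KO3 cell of 1097 held 13. A KO1 cell of 8503 UMIs held 10 of the 16 markers, and a KO2 cell of 7030 held 9.

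**Figure D1:**
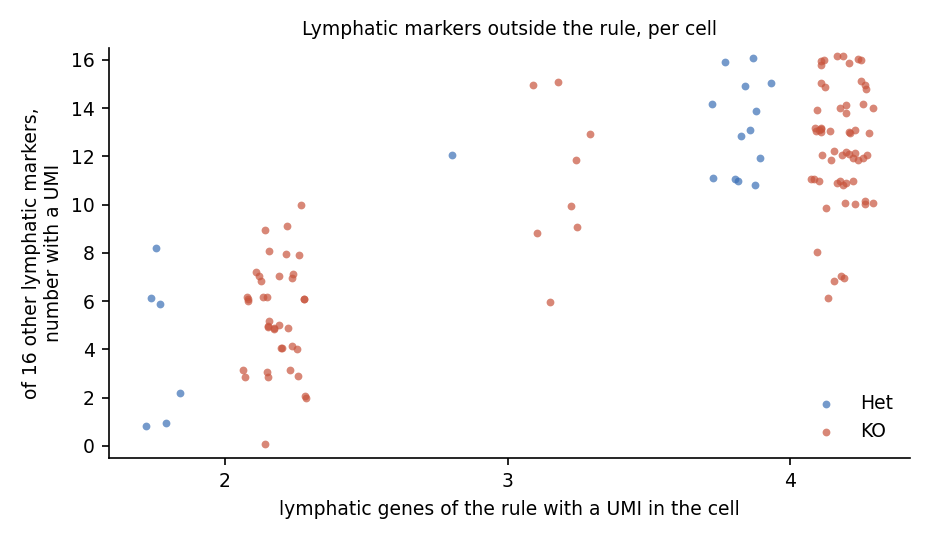
Number of 16 lymphatic markers outside the rule with a UMI (vertical axis) in each of the 127 cells, by the number of lymphatic genes of the rule found in it (horizontal axis), with points spread sideways and slightly upwards or downwards for legibility. Cells with 2 genes held 1 to 8 markers in Het and 0 to 10 in KO. Those with 3 or 4 held 11 to 16 in Het and 6 to 16 in KO.

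The edge of the rule showed the same step. Over all libraries the 16 markers summed to 764 CPM in the 1570 endothelial-gate cells with none of the 4 genes, 895 CPM in the 411 cells with 1, just outside the rule, and 941 CPM in the 45 cells with 2, just inside it. They summed to 6422 CPM in the 9 cells with 3 and 7244 CPM in the 73 cells with 4. Free RNA gives a floor for such counts. In red-cell barcodes, which should hold no lymphatic RNA, Ccl21a was found in 0.655% to 2.78% of barcodes per library and Prox1 in 0.0716% to 0.375%, at median depths of 2328 to 2622 UMIs. Cells with Ptprc and no Cdh5 or Pecam1 UMI had median depths of 12280 to 13800 UMIs. Among them Prox1 was found in 3.26% to 6.51%, Ccl21a in 1.08% to 4.87%, and at least 2 of the 4 genes in 0.116% to 0.494%. Prox1 was found more often than Ccl21a in these cells and less often in red-cell barcodes, in every library. Whether the Prox1 UMIs of these Ptprc cells were free RNA was not tested.

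More cells met the rule in the homozygous libraries, both over all 127 cells and over core cells alone. Counting core and 2-gene cells together, Het1 gave 13 cells of 600 endothelial-gate cells, 2.17% (95% exact Clopper-Pearson interval 1.16 to 3.68). Het2 gave 7 of 379, 1.85% (0.746 to 3.77). KO1 gave 43 of 405, 10.6% (7.79 to 14), KO2 gave 27 of 350, 7.71% (5.15 to 11), and KO3 gave 37 of 374, 9.89% (7.06 to 13.4). All 3 KO libraries lay above both Het libraries. The mean share of the 2 Het libraries was 2.01% ± 0.226 (SD, n = 2), and that of the 3 KO libraries was 9.41% ± 1.51 (SD, n = 3), a ratio of 4.69. The exact permutation test, two-sided, gave p = 0.1 for this difference, which is the smallest value that the 10 splits of these libraries allow, so the design could not reach a threshold of 0.05. The intervals cover counting error only.

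Core cells alone gave nearly the same ratio. The Het libraries held 9 and 5 of them, and the KO libraries 28, 18 and 22. Their share of endothelial-gate cells was 1.5% and 1.32% in the Het libraries and 6.91%, 5.14% and 5.88% in the KO libraries. The means were 1.41% ± 0.128 (SD, n = 2) and 5.98% ± 0.889 (SD, n = 3), a ratio of 4.24, and the exact permutation test, two-sided, again gave p = 0.1. The 2-gene cells numbered 4 and 2 in Het and 15, 9 and 15 in KO, so they too were more numerous in the KO libraries, although they carried the other lymphatic markers only at about the level of blood endothelium.

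**Figure D2:**
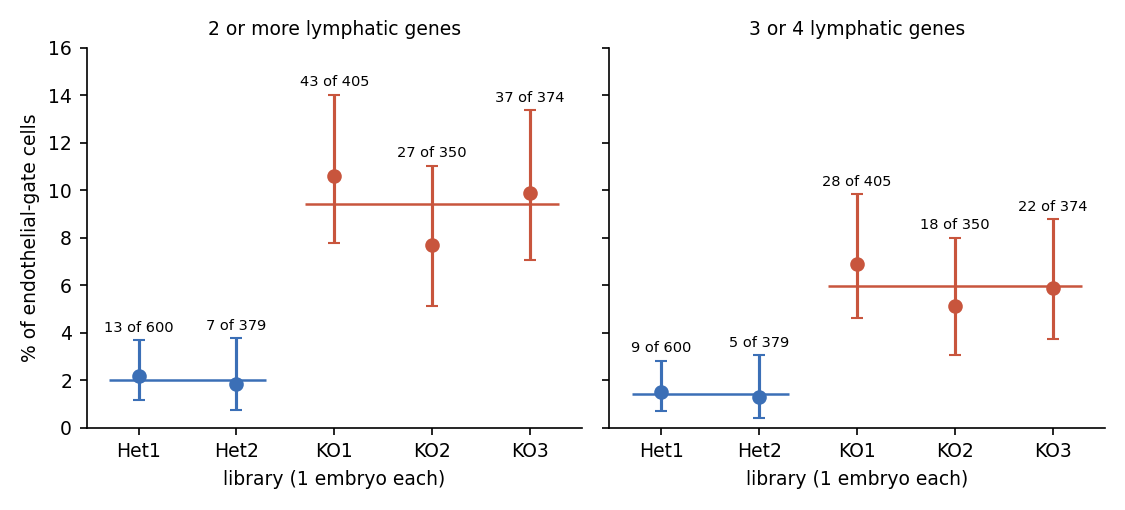
Share of endothelial-gate cells, in percent, that held at least 2 lymphatic genes (left) and 3 or 4 (right), by library, 1 embryo each. Points carry 95% exact binomial intervals, horizontal lines are group means, and the cell numbers stand above each point. In both panels the 3 KO libraries lie above both Het libraries.

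The number of endothelial-gate cells itself was 600 and 379 in Het and 405, 350 and 374 in KO, with overlapping groups. As a share of all cells past the quality filter, core cells made up 0.187% and 0.119% in Het and 0.895%, 0.541% and 0.548% in KO, a ratio of 4.33. All 127 rule-selected cells made up 0.270% and 0.167% in Het and 1.37%, 0.812% and 0.922% in KO, a ratio of 4.75. With every cell of at least 3000 UMIs thinned to 3000, and all genes of the rule read in the thinned counts, the ratio was 4.35, and 4.01 for core cells. The exclusion genes were also read at this lower depth, so the set of cells differed. Endothelial-gate cells then numbered 625 and 437 in Het and 341, 383 and 387 in KO, and core cells 8 and 7 in Het and 22, 16 and 26 in KO. Scrublet, a doublet caller, marked 6 rule-selected cells in Het1, 2 in Het2 and 0 in the KO libraries. Of all barcodes past the quality filter, 3.86% and 3.35% were marked in Het and 2.49%, 2.65% and 3.21% in KO. In each library a number of top scores fixed by its barcode number was marked. Most of the marked rule-selected cells were core cells. Without them Het1 kept 4 of its 9 core cells and Het2 kept 3 of its 5, while KO1, KO2 and KO3 kept all 28, 18 and 22. The share of rule-selected cells was then 1.21% and 1.36% in Het and 10.8%, 7.89% and 10.2% in KO, a ratio of 7.48 (8.10 for core cells). Whether the marked cells were doublets was not tested. When cells with Ptprc, Epcam or Pdgfra UMIs were not removed, the ratio was 3.01 (5.21 for core cells), the groups still did not overlap in share, and the exact permutation p for the number of cells was 0.2. These are shares of dissociated, captured cells, in which the number of lymphatic cells in the lung and their recovery cannot be told apart. KO1 and KO2, both female, had shares of 10.6% and 7.71% of endothelial-gate cells, and KO3, male like both Het libraries, had 9.89%. The part of sex in the difference was not tested.

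The 4 lymphatic genes of the rule are given as a description, since they chose the cells. In core cells Prox1 stood at 993 and 1047 CPM in Het and 825, 729 and 1022 CPM in KO. Mmrn1, which encodes the secreted protein multimerin-1, stood at 2655 and 1763 CPM in Het and 1968, 1827 and 2099 CPM in KO. Reln, which encodes the secreted glycoprotein reelin, stood at 1149 and 629 CPM in Het and 655, 660 and 669 CPM in KO. The groups overlapped in all 3 genes. Ccl21a varied most, with 12410 and 5409 CPM in Het and 3050, 7249 and 6273 CPM in KO. Within KO1 it ranged from 0 to 302 UMIs per core cell with a median of 59. The level of Ccl21a is uncertain because near-identical copies, Ccl21b and Ccl21c, share its sequence, and these were listed at 0 in all libraries. Of the 2 endothelial genes of the gate, Cdh5 stood at 536 to 657 CPM and Pecam1 at 344 to 475 CPM in core cells.

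Beside blood endothelium, core cells carried a set of genes that the rule had not used, again as a description because the rule made this contrast. Fgl2, a secreted fibrinogen-like protein, stood at 2305 and 1847 CPM in Het core cells and 1957, 1323 and 1594 CPM in KO core cells, against 14.2 to 32.4 CPM in blood endothelium. Thy1, a surface glycoprotein, stood at 212 to 316 CPM against at most 0.841 CPM. Lyve1, the hyaluronan receptor, stood at 1398 to 2330 CPM against 280 to 378 CPM, so it marked lymphatic cells by level and not by presence. Stab1, a scavenger receptor, stood at 1187 to 1511 CPM against 89.4 to 116 CPM. Nrp2, the co-receptor of VEGFR3, stood at 649 to 1718 CPM against 61.1 to 114 CPM. Klhl4, Pard6g and Arl4a also stood higher in core cells in all 5 libraries, at 625 to 730, 319 to 494 and 513 to 682 CPM against at most 41.0, 14.9 and 57.0 CPM. They were named for the lowest of their 5 library ratios to blood endothelium, so standing higher in all 5 follows from that choice.

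The fetal growth genes of the imprinted H19 and Igf2 locus were among the most abundant of these. H19, a long noncoding RNA, stood at 6596 and 8219 CPM in Het core cells and 8090, 6141 and 5518 CPM in KO core cells, against 339 to 800 CPM in blood endothelium. Igf2, the growth factor gene beside it, stood at 2767 and 3734 CPM in Het and 3659, 2984 and 2209 CPM in KO, against 112 to 259 CPM. The gap junction gene Gja1, used in lymphatic valves, stood at 264 to 537 CPM against 28.6 to 48.2 CPM. Nfat5, the transcription factor of the osmotic response, stood at 744 to 897 CPM against 98.2 to 116 CPM. Ptx3, a soluble pattern recognition protein, was uneven among core cells, at 587 and 154 CPM in Het and 162, 566 and 260 CPM in KO, and was at most 0.488 CPM in blood endothelium. The acute-phase gene Lbp, the selenium carrier Selenop and the sodium channel gene Scn3a stood at 326 to 796, 1025 to 1818 and 174 to 374 CPM. That they stood above blood endothelium in all 5 libraries again follows from how they were chosen.

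**Figure D3:**
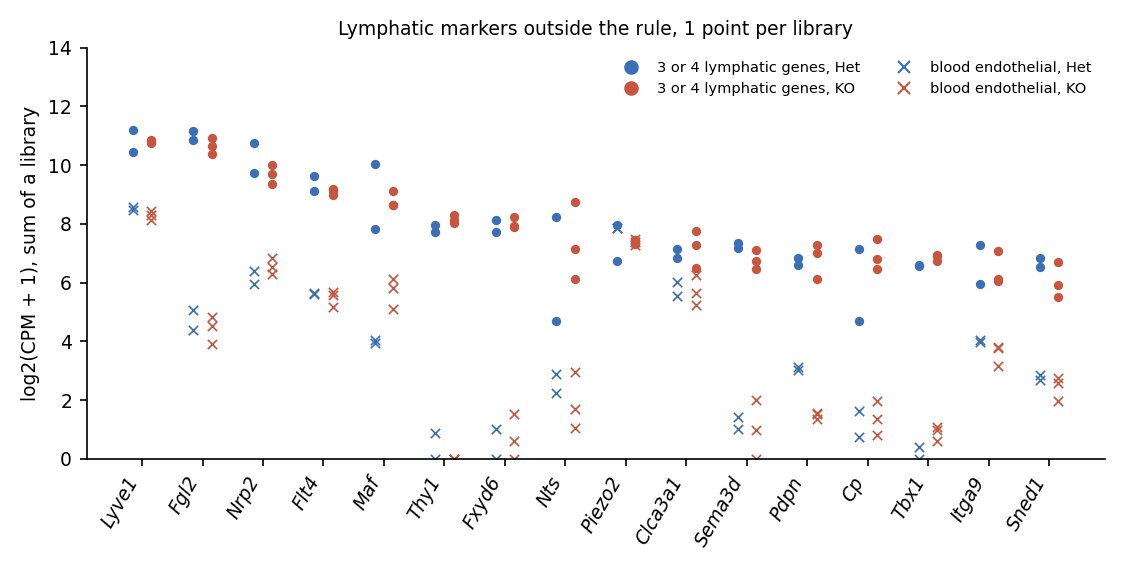
Level of the 16 lymphatic markers outside the rule, as log2(CPM + 1) of the summed counts of a library, in core cells (circles) and blood endothelial cells (crosses), 1 point per library, coloured by genotype. Most markers lie far apart in the 2 cell classes, while Piezo2 lies close in both, and Het and KO points overlap for most genes.

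Between genotypes, no gene passed the test within core cells. UMIs were summed over the core cells of each library, 158394 and 224768 in Het and 769307, 296049 and 649076 in KO, and compared with edgeR's quasi-likelihood test. Of 4728 genes tested, 0 had an adjusted p under 0.05 (0.0%), 274 had an unadjusted p under 0.05, and DESeq2 also called 0. The groups did not overlap for 24.7% of tested genes, 13.1% higher and 11.5% lower in KO. The Het sums rest on 9 and 5 cells, which limits what could be detected. Without the cells that Scrublet marked they rested on 4 and 3 cells, and 0 of 4891 genes passed. A fit without Het1 or Het2 keeps 1 Het library, so its Het side has no replication. Leaving out Het1 gave 8 calls, leaving out Het2 gave 12, and leaving out KO3 gave 1.

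Several genes came nearest to the threshold in core cells and are given as values that did not pass. Slc20a1, a phosphate transporter, stood at 281 and 194 CPM in Het and 65.5, 111 and 95.8 CPM in KO, a log2 fold change of -1.41 (SE 0.28). All 3 KO values lay below both Het values, and edgeR's quasi-likelihood adjusted p was 0.539. Neat1, a nuclear noncoding RNA of paraspeckles, stood at 412 and 998 CPM in Het and 233, 285 and 277 CPM in KO, a log2 fold change of -1.44 (SE 0.30, adjusted p = 0.539). In Het2, 105 of its 227 Neat1 UMIs lay in 1 cell. Neat1 did pass in blood endothelium, where it fell by 1.2 on the log2 scale (adjusted p = 6.29e-05).

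Mdk, which encodes the secreted growth factor midkine, stood at 12.5 and 44.0 CPM in Het core cells and 131, 149 and 94.3 CPM in KO core cells. It was found in 6 of 14 Het and 52 of 68 KO core cells, with no more than 28 UMIs in any cell. Its log2 fold change was 1.99 (SE 0.44, edgeR adjusted p = 0.583). In blood endothelium Mdk rose by 1.53 on the log2 scale (adjusted p = 0.0097). Man1a, a Golgi mannosidase, stood at 25.0 and 17.6 CPM in Het and 73.3, 72.9 and 79.1 CPM in KO, a log2 fold change of 1.85 (SE 0.39, adjusted p = 0.539). Fth1, the ferritin heavy chain and one of the most abundant transcripts of these cells, stood at 6053 and 5625 CPM in Het and 4323, 3772 and 4172 CPM in KO, a log2 fold change of -0.51 (SE 0.13, adjusted p = 0.624). Pim3, Rnf122, Dnajb1 and Prelp had log2 fold changes of 1.05, 1.96, -1.26 and -1.81, each with an adjusted p of 0.624. Zswim8 itself stood at 87.5 and 44.0 CPM in Het and 98.2, 115 and 88.2 CPM in KO core cells (log2 fold change 0.65, adjusted p = 0.864).

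No gene of the lists for lymphatic identity and growth passed. Of the 16 markers used for the label check all 16 could be tested in core cells, 7 with positive and 9 with negative log2 fold changes, and their median was -0.04. The 1 with an unadjusted p under 0.05 was Nrp2, at 1718 and 858 CPM in Het and 649, 1018 and 824 CPM in KO (log2 fold change -0.63, edgeR adjusted p = 0.85). Of 9 VEGF-C and VEGFR3 signalling genes 3 could be tested in core cells, and 0 passed in either direction, with a median log2 fold change of -0.30 beside -0.0047 over all genes. Flt4 stood at 800 and 550 CPM in Het and 552, 577 and 510 CPM in KO, with overlapping groups. Kdr, the main VEGF-A receptor gene, stood at 781 and 646 CPM in Het and 521, 643 and 654 CPM in KO. Of 14 lymphatic transcription factors 12 could be tested and 0 passed (median -0.14). Klf2, which responds to shear flow, stood at 862 and 761 CPM in Het and 316, 594 and 487 CPM in KO, below both Het values in every KO library (log2 fold change -0.81, SE 0.26, edgeR adjusted p = 0.742). Klf4, a related flow-responsive factor, stood at 1074 and 1610 CPM in Het and 1051, 788 and 934 CPM in KO (-0.54, adjusted p = 0.845). Nr2f2, the PROX1 partner COUP-TFII, stood at 643 and 339 CPM in Het and 389, 313 and 473 CPM in KO.

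Of 14 collecting vessel and valve genes 13 could be tested and 0 passed (median log2 fold change 0.17). Foxc2, the forkhead factor of lymphatic valves, stood at 37.5 and 30.8 CPM in Het and 57.6, 27.8 and 42.6 CPM in KO core cells. Of 13 endothelial junction genes 9 could be tested and 0 passed (median -0.22), and Cldn5, the main endothelial claudin gene, stood at 1174 and 1579 CPM in Het and 1166, 1105 and 1148 CPM in KO. In blood endothelium Cldn5 fell by 0.76 on the log2 scale (edgeR adjusted p = 0.000483), while in core cells its log2 fold change of -0.28 had an adjusted p of 0.881. The 9 tested of 19 leukocyte trafficking and sphingosine phosphate genes had a median of -0.05, the 5 tested of 6 angiopoietin and TIE genes -0.11, and the 2 tested of 6 adrenomedullin receptor genes -0.30, with 0 calls in each. Tie1, an endothelial receptor kinase, stood at 437 and 396 CPM in Het and 411, 379 and 364 CPM in KO. Icam2, an adhesion molecule for leukocytes, stood at 225 and 176 CPM in Het and 136, 149 and 120 CPM in KO (-0.57), below both Het values in every KO library. In blood endothelium Icam2 fell by 0.62 on the log2 scale (adjusted p = 0.00178). Ramp2, the subunit that makes Calcrl an adrenomedullin receptor, stood at 687 and 1003 CPM in Het and 799, 722 and 724 CPM in KO.

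The remaining lists also gave 0 calls in core cells by edgeR's quasi-likelihood test. The medians were 0.07 for 12 tested of 24 BMP, TGF-beta and Notch genes and 0.13 for 21 tested of 22 matrix and integrin genes. They were -0.29 for 11 tested of 15 fatty acid handling genes, -0.50 for 18 tested of 26 cell cycle genes, and -0.20 for 14 tested of 16 immediate early and stress genes. They were 0.00396 for 12 tested of 16 imprinted and microRNA host genes. Eng, the BMP co-receptor endoglin, stood at 231 and 409 CPM in Het and 521, 368 and 347 CPM in KO. Of the basement membrane genes, Col4a1 stood at 531 and 699 CPM in Het and 1018, 653 and 776 CPM in KO, and Col18a1 at 512 and 629 CPM in Het and 767, 709 and 660 CPM in KO. Col18a1 was thus above both Het values in every KO library. Fabp4, a fatty acid carrier of microvessels, was uneven, at 637 and 1697 CPM in Het and 1310, 469 and 444 CPM in KO. Among cell cycle genes the D-type cyclin gene Ccnd1 stood at 62.5 and 167 CPM in Het and 213, 184 and 271 CPM in KO (log2 fold change 0.90, adjusted p = 0.845). The cyclin-dependent kinase inhibitor gene Cdkn1c, also imprinted, stood at 62.5 and 317 CPM in Het and 507, 250 and 344 CPM in KO. Fos, an early response gene that dissociation can induce, stood at 2461 and 2731 CPM in Het and 2393, 2543 and 2306 CPM in KO. Oip5os1, the noncoding RNA Cyrano, which directs the decay of miR-7, stood at 256 and 167 CPM in Het and 115, 115 and 116 CPM in KO (log2 fold change -0.85, adjusted p = 0.651). It lies opposite another gene, and whether the counting used strand is not given in the sources used here.

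The same comparison was made over all 127 cells, core and 2-gene cells together. Of 7143 genes tested on the summed UMIs, 1 passed edgeR's quasi-likelihood test (0.014%), 633 had an unadjusted p under 0.05, and DESeq2 called 17. Cxcl12, the chemokine ligand of CXCR4 (mm10 chromosome 6, 117168535 to 117181367, plus strand), had 0 UMIs in both Het sums. The KO sums held 460 UMIs in KO1, 280 in KO2 and 997 in KO3. Set against a floor of 3 UMIs over both Het libraries, it was at least 98.3-fold higher in KO (556 CPM against 5.66 CPM). The edgeR adjusted p was 0.00561. Of these UMIs only 3, 3 and 1 lay in KO core cells. The other 1730 lay in 13 of the 39 KO 2-gene cells.

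Single cells carried most of the Cxcl12 counts. In KO1, 278 of the 457 UMIs in 2-gene cells came from 1 cell of 87180 total UMIs, in KO2 274 of 277 from 1 cell of 44214, and in KO3 703 of 996 from 1 cell of 147485. Cxcl12 is also an arterial marker, and the other 7 arterial markers on the list were all detected in 2-gene cells. Without Cxcl12 they summed to 327 and 288 CPM in the Het and 589, 701 and 1077 CPM in the KO 2-gene cells, against 777 to 1067 CPM in blood endothelium. In core cells 6 of the 7 were detected, with Gja5 at 0, and they summed to 262 and 457 CPM in Het and 607, 222 and 392 CPM in KO, with overlapping groups. Blood endothelial cells held Cxcl12 at 894 and 643 CPM in Het and 817, 853 and 1158 CPM in KO, with overlapping groups. When Ptprc, Epcam and Pdgfra were not used to remove cells, the log2 fold change was 3.44 and the adjusted p 0.413. With cells over 40000 UMIs left out, 1 of 4954 genes passed edgeR's test. That gene was lower in KO, so Cxcl12 was not called in that run. The part of arterial cells in the Cxcl12 result was not tested.

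Markers of other cell types were also present in the 2-gene cells. The 6 smooth muscle and pericyte markers summed to 371 and 12.5 CPM in Het and 1185, 493 and 593 CPM in KO, with all KO values above both Het values. The 6 fibroblast markers summed to 252 and 0 CPM in Het and 1007, 241 and 2434 CPM in KO, with overlapping groups. In KO3 a single 2-gene cell of 21593 UMIs held 297 of the 367 Col1a1 UMIs and 363 of the 456 Col3a1 UMIs. In core cells all 6 fibroblast markers were detected, at 37.5 and 66.0 CPM in Het and 131, 122 and 604 CPM in KO, and in KO3 1 core cell of 91585 UMIs held 96 of 109 Col1a1 and 103 of 151 Col3a1 UMIs. Core cells also held all 6 smooth muscle and pericyte markers, at 12.5 to 21.3 CPM over the 5 libraries. The 2-gene cells held 29.8% and 26.2% of the UMIs of the rule-selected cells in Het and 41.5%, 47.7% and 47.8% in KO, so they weighed more in the KO sums. The part of these markers in the results over all 127 cells was not tested. Genes nearest to the threshold there, none of which passed, were Zeb2 (log2 fold change 2.15), Tm4sf1 (1.80), Mdk (2.18), Neat1 (-1.64) and Clic5 (-2.06), each with an edgeR adjusted p of 0.0547, then Slc20a1 (-1.56, 0.0747), Fth1 (-0.80, 0.124), Fosl2 (1.33, 0.152) and Tubb4b (-1.03, 0.179).

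The remaining marker lists were summed in core cells as a description. The 8 general capillary markers summed to 543 and 726 CPM in Het and 1170, 764 and 688 CPM in KO core cells, against 2358 to 2890 CPM in blood endothelium. Of these, Gpihbp1, the capillary anchor of lipoprotein lipase, stood at 181 and 132 CPM in Het and 530, 379 and 256 CPM in KO (log2 fold change 1.33, edgeR adjusted p = 0.624). The 8 aerocyte markers summed to 868 and 1051 CPM in Het and 973, 959 and 1083 CPM in KO core cells, with Car4 at 0. In blood endothelium they summed to 1412 and 1410 CPM in Het and 857, 629 and 663 CPM in KO. Core cells thus stood below blood endothelium in both Het libraries and above it in every KO library. The 6 venous markers summed to 160 to 220 CPM with Slc6a2 at 0, against 331 to 439 CPM in blood endothelium. Red cell markers were high in Het2 core cells, at 12150 CPM against 1261 to 2286 CPM in the other libraries, and 1208 of its 1297 Hbb-bs UMIs lay in 1 cell. Megakaryocyte and platelet markers were high in KO2, at 267 CPM against 4.40 to 35.4 CPM elsewhere. Epithelial markers stood at 57.2 to 287 CPM, immune markers at 57.6 to 128 CPM, mesothelial markers at 7.61 to 22.0 CPM, and neuroendocrine markers at 12.5 to 43.2 CPM with Calca, Resp18, Chga and Scg5 at 0. Their part in the genotype comparison of core cells was not tested.

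Whether the genotype difference in core cells departed from that in blood endothelium was tested directly, gene by gene, as a genotype by class term with the library as a block. In blood endothelium 589 of 10697 genes passed edgeR's quasi-likelihood test (5.51%), 162 higher (1.51%) and 427 lower (3.99%) in KO, and groups did not overlap for 35.0% of genes. The term passed for 10 of 10319 genes in core cells (0.0969%), 611 had an unadjusted p under 0.05, and 7 of the 10 were more positive in core cells. Over all 127 cells it passed for 18 of 10746 genes (0.168%), and 5 genes, Lpl, Fn1, H19, Fibin and Maf, passed in both.

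Lpl, lipoprotein lipase (mm10 chromosome 8, 68880491 to 68907448, plus strand), had 7 and 6 UMIs in Het core cells and 156, 23 and 73 in KO core cells, or 43.7 and 26.4 CPM against 204, 79.9 and 111 CPM. All 3 KO values lay above both Het values, and the log2 fold change was 2.02 (SE 0.52, edgeR adjusted p = 0.624). In KO2, 18 of the 23 UMIs lay in 1 cell of 65149 total UMIs. In blood endothelium Lpl stood at 69.6 and 52.6 CPM in Het and 17.5 to 25.4 CPM in the 3 KO libraries, and fell by 1.59 on the log2 scale (adjusted p = 0.000412). The term was 3.53 (SE 0.49, adjusted p = 0.00195), and it passed with each library left out in turn.

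Sparcl1, a matrix protein of blood vessels (mm10 chromosome 5, 104079111 to 104113733, minus strand), stood at 25.0 and 8.79 CPM in Het core cells and 119, 93.8 and 66.9 CPM in KO core cells, against 867 to 1385 CPM in blood endothelium. Its log2 fold change was 2.57 in core cells (edgeR adjusted p = 0.539) and -0.41 in blood endothelium (adjusted p = 0.0636), and neither passed. In KO2, 24 of its 27 core-cell UMIs lay in the same cell of 65149 UMIs. The term was 3.00 (SE 0.44, edgeR adjusted p = 0.0023, and 0.0748 without Het2). Fibin, a secreted protein gene that also marks aerocytes, stood at 25.0 and 136 CPM in Het core cells and 185, 153 and 243 CPM in KO core cells, and fell by 1.63 on the log2 scale in blood endothelium (adjusted p = 0.0444). Its term was 2.98 (SE 0.48, adjusted p = 0.00444) and was 0.608 in adjusted p when blood endothelium was defined by either Cdh5 or Pecam1.

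Fn1, fibronectin, stood at 281 and 814 CPM in Het core cells and 906, 788 and 738 CPM in KO core cells, while in blood endothelium it stood at 84.4 and 234 CPM in Het and 89.1, 79.7 and 85.5 CPM in KO. Its groups overlapped in both classes. Its log2 fold change was 0.54 in core cells (edgeR adjusted p = 0.881) and -0.89 in blood endothelium (adjusted p = 0.111), and neither passed. Its term was 1.54 (SE 0.23, edgeR adjusted p = 0.00239). This passed with each library left out and gave 0.0631 with a sex by class term and 0.181 with the wider blood endothelial gate. H19 (mm10 chromosome 7, 142575529 to 142578143, minus strand) was abundant in core cells of both genotypes, with a log2 fold change of -0.17 between them (adjusted p = 0.914). In blood endothelium it rose by 0.92 on the log2 scale, from 339 and 465 CPM in Het to 800, 735 and 744 CPM in KO (adjusted p = 0.00135). The H19 term was -1.05 (SE 0.16, adjusted p = 0.00328) and passed in every alternative run for core cells. Igf2 rose by 0.80 on the log2 scale in blood endothelium (adjusted p = 0.00621), and its term in core cells was -0.91 with an adjusted p of 0.0683.

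The other 5 genes were less stable. With the wider blood endothelial gate the edgeR adjusted p of the term was 0.0837 for Pmp22, 0.0587 for Igfbp7, 0.674 for Maf and 0.0858 for Fabp5. With a sex by class term it was 0.145 for Scn3b, 0.138 for Igfbp7 and 0.11 for Maf. A filter of 10 UMIs in 4 sums gave 0.106 for both Maf and Fabp5. In each of these runs the terms of those 5 genes that are not listed passed. Pmp22, a tetraspan membrane protein, fell by 2.04 on the log2 scale in blood endothelium (edgeR adjusted p = 1.21e-06), from 278 and 297 CPM to 77.5, 70.6 and 61.5 CPM, while core cells held only 25.0 and 4.40 CPM in Het and 47.1, 13.9 and 33.5 CPM in KO. Its term was 3.50 (SE 0.61, adjusted p = 0.0104, but 0.232 without Het2 and 0.0887 without KO1). Scn3b, a sodium channel subunit, had a term of 2.60 (adjusted p = 0.0116, and 0.147 without Het1 or 0.0627 without Het2). Igfbp7, a secreted growth factor binding protein, had a term of 1.58 (adjusted p = 0.029, and 0.209, 0.0627 and 0.124 without Het1, Het2 and KO1). Maf, a transcription factor of lymphatic endothelium, rose by 1.80 on the log2 scale in blood endothelium (adjusted p = 0.00207). In core cells Maf stood at 1056 and 229 CPM in Het and 402, 552 and 400 CPM in KO, and its term was -2.03 (adjusted p = 0.0377, and 0.78 without Het1 or 0.121 without KO1). Fabp5, a fatty acid carrier, had a term of -1.71 (adjusted p = 0.0448, and 0.69 without Het2 or 0.0699 without KO2).

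**Figure D4:**
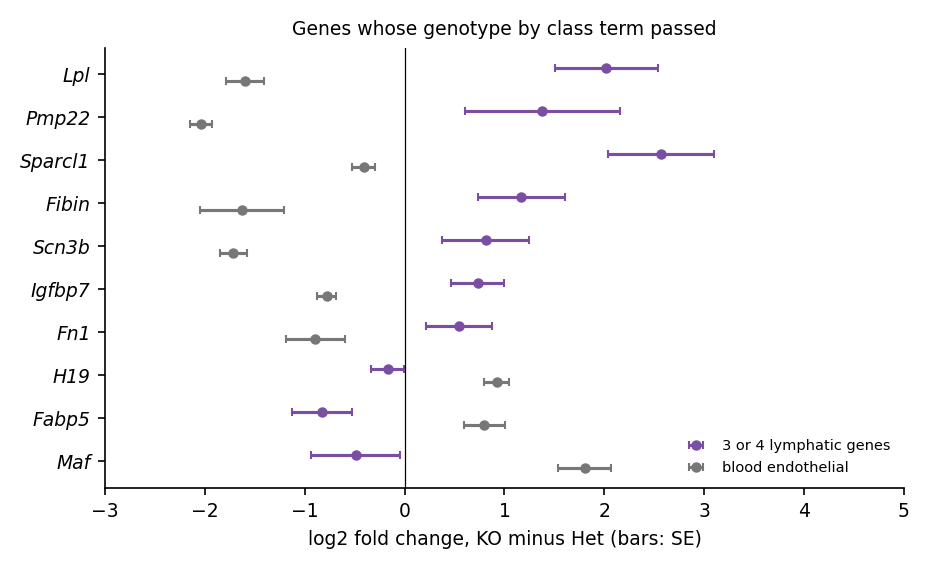
Log2 fold change, KO minus Het, with its standard error, in core cells and in blood endothelial cells for the 10 genes whose genotype by class term passed. For all 10 genes the values of the 2 cell classes lie on opposite sides of 0.

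Cycling cells were counted as those with UMIs of at least 3 of 10 proliferation genes such as Mki67 and Top2a. Among the 127 cells the Het share was 36.8% ± 8.55 (SD, n = 2) and the KO share 33.6% ± 1.24 (SD, n = 3) (exact permutation test, two-sided, p = 0.8). With every cell thinned to 3000 UMIs, which left out 2 cells, the share was 31.0% ± 3.37 in Het and 16.1% ± 4.30 in KO, with groups that did not overlap (exact permutation p = 0.1, the smallest possible). The thinned difference depended on the number of genes required. At 2 genes it was 31.0% against 24.1%, with overlapping groups (exact permutation p = 0.3), and at 5 genes 26.8% against 6.80% (exact permutation p = 0.1). In thinned core cells the share was 22.2% and 20% in Het and 3.57%, 11.1% and 13.6% in KO, from 2, 1, 1, 2 and 3 cells (exact permutation p = 0.1). At 1 to 3 cycling cells per library, a difference between the genotypes could not be shown for core cells.

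Shares of cells with a UMI of 4 further lymphatic genes were compared after the same thinning. Lyve1 was found in 92.9% ± 10.1 (SD, n = 2) of cells from the Het libraries and 74.7% ± 7.18 (SD, n = 3) of those from the KO libraries, Pdpn in 22.6% ± 8.42 and 19.6% ± 7.06, Flt4 in 64.9% ± 9.26 and 54.1% ± 13.2, and Foxc2 in 4.17% ± 5.89 and 6.96% ± 6.94. The exact permutation tests, two-sided, gave p = 0.1 for Lyve1 and 0.6 to 0.8 for the other genes, and adjusted over the 4 genes the values were 0.4 and 0.8. In core cells alone Lyve1 was found in all 14 thinned Het cells and in 85.7%, 77.8% and 95.5% of the KO cells (exact permutation p = 0.2). Blood endothelial cells thinned in the same way held Lyve1 in 54.3% and 52.3% in Het and 42.7%, 45.3% and 49.7% in KO. There too every KO value lay below both Het values. As a background, red-cell barcodes, at median depths of 2328 to 2622 UMIs, held Lyve1 in 0.810% to 1.58% and Foxc2 in at most 0.0632%.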

How the data were processed

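Per the file headers, Cell Ranger 4.0.0 made the deposited matrices, which hold raw UMI counts as whole numbers. The build was mm10, per the submitters' processing notes. Barcode filters before deposit are not given in the sources used here. The rule genes, cell classes and gene lists were chosen with earlier results of these data known. Labels pair no samples by origin, and columns of other series numbered 0.

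UMIs were summed per library and class, because cells are not replicates and the embryo is. Sums were compared with edgeR 4.0.16 (quasi-likelihood test, TMM scaling, filterByExpr, Benjamini-Hochberg over all genes tested, threshold 0.05), with the 9 rule genes kept in library sizes but not tested. CPM uses TMM-scaled totals, except in 2-gene cells, in values pooled over libraries and in the floor for Cxcl12, which use raw totals. The term fit added library as a block. Shares used exact permutation tests over libraries and Clopper-Pearson intervals. The analyses used R 4.3.3, DESeq2 1.42.0, limma 3.58.1, Python 3.11.15 and scanpy 1.11.5 (Scrublet, removing 0.8% per 1000 cells). Coordinates come from GENCODE M21 on GRCm38. The fits were tested on simulated data.

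Named genes were the rule genes, the 3 most abundant tested genes of each list, genes past the threshold (with the 5 of smallest p in each direction where under 10 passed), the 5 largest passing terms in each direction, the 20 leading genes against blood endothelium, and Zswim8. Igfbp7, Fn1's term, Nr2f2, Foxc2, Oip5os1 and the further terms over all 127 cells fall outside this rule and were named after their values were seen. Sex-linked and haemoglobin genes were not named as changes. The split into core and 2-gene cells, the deep-cell and exclusion-gene alternatives, the arterial sum without Cxcl12, the thinned cycling share with libraries left out, and all core-cell fits were added after seeing the data. Other alternatives were DESeq2, library size alone, other filters, thinning, doublet removal, embryo sex, leaving out libraries 1 at a time, and a replicate block.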

Additional observations from a re-analysis of the deposited data

Results flagged for a closer look

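For 28 gene and cell class combinations the genotype difference departed from that in blood endothelium by edgeR's quasi-likelihood test of the genotype by class term (log2, positive where the difference was more positive in the lymphatic class). Over all 127 cells these were Cxcl12 (12.35), Acta2 (4.57), Itgb5 (3.41), Lpl (2.71), Fibin (2.61), Edn1 (2.35), Heg1 (2.08), Stmn2 (2.03), Zeb2 (1.91), Tm4sf1 (1.65), Calcrl (1.46), Nrp1 (1.42), Fn1 (1.34) and Ptprb (1.15) on the positive side. On the negative side were H19 (-1.29), Igf2 (-1.26), Cenpa (-1.49) and Maf (-2.48). Of these 18, only the Cxcl12 term passed with each library left out in turn, and the other 17 did not pass without Het1. In core cells, which held 7 Cxcl12 UMIs, its adjusted p was 0.927. The term was not run with cells over 40000 UMIs left out.

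In core cells the terms that passed were Lpl (3.53), Pmp22 (3.50), Sparcl1 (3.00), Fibin (2.98), Scn3b (2.60), Igfbp7 (1.58) and Fn1 (1.54), with H19 (-1.05), Fabp5 (-1.71) and Maf (-2.03) on the negative side. Of these 10, 4 passed with each library left out in turn and 2, H19 and Lpl, in every alternative run for core cells.

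Nrp1, the neuropilin of blood vessels, stood at 0 to 4.56 CPM in core cells, while over all 127 cells it stood at 53.9 and 89.9 CPM in Het and 162, 112 and 165 CPM in KO. Heg1, Calcrl and Ptprb had terms of 0.74, 0.37 and -0.57 in core cells, with adjusted p of 0.937, 0.94 and 0.834. The part of the 2-gene cells in these terms was not tested.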

How the results depend on the processing

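The ratio of KO to Het shares was 4.34 to 5.11 with each library left out (3.91 to 4.54 for core cells), 3.01 without the exclusion genes and 7.48 without doublets (5.21 and 8.10 for core cells). The unthinned difference in cycling share was -9.31 to 2.78 percentage points with libraries left out. After thinning it was -14.87, and -17.2 to -12.4 with libraries left out (-9.6 to -4.46 at 2 genes and -21.8 to -18.2 at 5 genes). Unthinned, the differences in the share of cells with a UMI were -2.57 for Lyve1, -16.6 for Pdpn, 2.96 for Flt4 and -15.2 for Foxc2.

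Genes called over all 127 cells numbered 17 by DESeq2, 206 with no low-count filter, 4 with sex as a covariate, 0 in core cells, 0 without the exclusion genes, and 1 to 21 with libraries left out. With cells over 40000 UMIs left out 1 gene was called, lower in KO, and Cxcl12 was not. Calls in core cells numbered 45 with no low-count filter and 0 to 12 with libraries left out. In blood endothelium they numbered 958 with no low-count filter, 275 with sex as a covariate and 148 to 736 with libraries left out. The term was called for 7 genes with either Cdh5 or Pecam1 and 3 to 103 with libraries left out (103 without KO2). In core cells it was called for 22 genes with a sex by class term, 4 with the wider blood gate, and 8 to 19 with libraries left out. The causes were not tested. The Ptprb term, 1.15 over all 127 cells, was -0.57 in core cells, where it did not pass. The differences in unthinned cycling, Pdpn, Flt4 and Foxc2 shares, none of which passed a test, took both signs over these settings.

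The labels do not say whether replicate numbers pair these samples. Deviations of same-numbered Het and KO libraries correlated at -0.03 and -0.05 over all cells and -0.19 and -0.17 in core cells. With only 2 Het libraries their deviations mirror each other, so these values cannot show whether same-numbered libraries shared a batch. With the replicate block 3 genes were called over all cells, 1 in core cells and 693 in blood endothelium, against 1, 0 and 589 without it. Depth limits the Het core-cell sums, of 158394 and 224768 UMIs from 9 and 5 cells.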
